A study of Homo sapiens with 6 samples.

Results

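The inhibitor of apoptosis proteins (IAPs) XIAP, BIRC2, BIRC3 and BIRC6 and the mitochondrial IAP antagonists DIABLO and HTRA2 were followed in HEY ovarian cancer cells with and without PQBP1 knockdown. The 6 genes were taken by symbol from a table of 32679 genes. DIABLO stands in 2 rows of that table, so that 7 rows were found, and 6 of them passed the filter on low values (FPKM averaging 1 or more across all 6 samples). FPKM is the number of fragments relative to transcript length and to all mapped fragments of the sample, so levels can be compared between genes of unequal length.

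Expression was measured by paired-end short-read RNA-seq of poly(A) RNA in 3 control samples (shNC, genotype NC, no treatment) and 3 knockdown samples (shPQBP1, genotype PQBP1 knockdown, doxycycline at 1 µg/ml), all labelled day 3. The hairpin and doxycycline differed together between the groups and cannot be told apart. According to the study's methods, stable lines were made by lentiviral infection and puromycin selection, and whether a line was a single clone is not given in the sources used here. For its knockdown HEY line the study also names a shorter induction than the day 3 of the labels. Its statistical section speaks of independent experiments in general, but the labels of these samples do not say that the 3 of a group were separate cultures, and if they were not, the p-values measure only the spread between these samples, which may be technical.

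IAPs are defined by the baculovirus IAP repeat (BIR), a zinc-binding fold that docks on caspases or on short peptides of other proteins. XIAP blocks active caspases directly, whereas BIRC2 (cIAP1) and BIRC3 (cIAP2) act mainly as ubiquitin ligases in TNF receptor complexes and keep NF-kB signalling on, and BIRC6 (BRUCE, also called apollon) is a very large BIR protein that joins ubiquitin to its targets. DIABLO (SMAC) and HTRA2 (OMI) are imported into mitochondria, trimmed there, and leave the intermembrane space when BAX and BAK open the outer membrane. Trimming bares a new amino terminus, the IAP-binding motif, which fits the BIR groove and frees caspases.

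The codons of that motif show what the antagonists share. They are given with 9 bases on either side from GENCODE release 44 transcripts, and capitals mark the 4 codons that begin the mature protein.

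DIABLO: accctgtgtGCGGTTCCTATTgcacagaaa

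HTRA2: gtcctcgccGCCGTCCCTAGCccgccgccc

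The motif began at codon 56 of 239 in DIABLO and at codon 134 of 458 in HTRA2. Of the 12 bases in capitals, 8 were identical between the genes. The FPKM values below count transcripts of the precursor proteins and do not measure trimming or release.

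The depth of the samples is unknown, because FPKM values hold no counts. In the shNC samples PQBP1, the targeted gene, had an FPKM of 7.18, 6.67 and 6.93, and in the shPQBP1 samples it had 1.68, 1.72 and 1.44. Its log2 fold change was -2.04 (adjusted p = 0.00154, limma with Benjamini-Hochberg adjustment over 11413 genes). Of the 9 ovarian carcinoma and epithelial markers, 5 were tested and 0 were called, and KRT7, KRT8 and KRT18 were high while CDH1 and MUC16 were at or near 0. PAX8 had 14.3 ± 1.76 in shNC and 20.8 ± 2.96 in shPQBP1 (SD, n = 3 each), with groups that did not overlap and a limma adjusted p of 0.102. After the correction for GC content and length described below, 4 of the 5 were called higher, PAX8 (log2 fold change 0.66), KRT19 (0.61), KRT18 (0.32) and KRT8 (0.29). That fit called 938 of its 11385 genes, 565 of them higher. WT1, another of the 9, was too low to be tested and lay the other way, with an FPKM of 0.63, 0.71 and 0.68 in shNC and 0.31, 0.34 and 0.45 in shPQBP1 and groups that did not overlap. Among the 4 mesenchymal markers, FN1 (fibronectin) was called, with 43.4 ± 1.06 in shNC and 144 ± 14.5 in shPQBP1 (SD, n = 3 each), and VIM was called as well after that correction (log2 fold change 0.27, limma adjusted p = 0.0497, with 0.0418 to 0.628 over its 15 alternatives and 0.14 and 0.217 as reported). Of the 6 leukocyte and endothelial markers, 4 were in the table and 1, CD68, was tested. The summed FPKM of that list was 9.41 to 15.8 in shNC and 12.2 to 21.2 in shPQBP1, nearly all of it CD68, and PTPRC was at 0 in every sample. PECAM1, too low to be tested, had an FPKM of 0.24, 0.23 and 0.25 in shNC. It was lower in shPQBP1, at 0.02, 0.03 and 0.06, and its groups did not overlap.

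None of the 6 members was called in the comparison of shPQBP1 with shNC (limma on log2(FPKM + 0.1), two-sided, adjusted p under 0.05), while 332 of the 11413 tested genes were called, 2.91%. At an unadjusted p under 0.05 the members again gave 0, against 2689 genes or 23.6% of all tested. The 4 IAPs had positive log2 fold changes between 0.41 and 0.74, and the 2 antagonists had negative ones of -0.11 and -0.20. The median was 0.57 for the members and 0.02 for all tested genes, and 0.31 and 0.03 after the GC and length correction. Fewer cells of a kind and less RNA per cell cannot be told apart in such bulk samples.

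XIAP (ENSG00000101966; hg38 chrX:123859712-123913972, plus strand, 7 exons in the canonical transcript) is the member that binds caspases most tightly. Its FPKM was 0.82, 1.73 and 0.99 in shNC samples 1, 2 and 3 and 2.0, 2.84 and 1.26 in shPQBP1 samples 1, 2 and 3. Only shPQBP1 sample 3 lay below a control sample, shNC sample 2, so the groups overlapped. The mean was 1.18 ± 0.484 in shNC and 2.03 ± 0.791 in shPQBP1 (SD, n = 3 each). The log2 fold change was 0.73 (SE 0.37, 95% interval -0.16 to 1.62, limma adjusted p = 0.275). XIAP was the least abundant member in both groups, at the 5.49th percentile of tested genes in shNC. A share of 4.81% of its 50-base words also occurred in transcripts of other genes, the most in its pseudogene XIAPP1, which had an FPKM of at most 0.08.

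BIRC2 and BIRC3 are neighbours on chromosome 11 and arose from a common ancestor. BIRC3 lies at chr11:102317484-102339403 (ENSG00000023445) and BIRC2 at chr11:102347211-102378670 (ENSG00000110330), both on the plus strand with 9 exons, and 7807 bp separate them. They shared 11 words of 50 bases, 0.296% of those of BIRC2, so that few fragments could be assigned to the wrong gene of the pair.

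BIRC2 was the most abundant member in both groups. Its FPKM was 7.28, 20.76 and 15.37 in shNC and 17.96, 28.94 and 20.84 in shPQBP1. The lowest shPQBP1 sample was below the highest shNC sample, and shNC sample 1 was far below the other control samples. The mean was 14.5 ± 6.78 in shNC and 22.6 ± 5.69 in shPQBP1 (SD, n = 3 each), with a log2 fold change of 0.74 (SE 0.40, 95% interval -0.23 to 1.70, limma adjusted p = 0.300).

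BIRC3 had an FPKM of 4.93, 12.62 and 11.09 in shNC and of 16.78, 13.19 and 14.71 in shPQBP1. It was the one IAP whose groups did not overlap, every shPQBP1 sample being above every shNC sample. The mean was 9.55 ± 4.07 in shNC and 14.9 ± 1.80 in shPQBP1 (SD, n = 3 each), with a log2 fold change of 0.74 (SE 0.35, 95% interval -0.11 to 1.59, limma adjusted p = 0.254). Separated groups were common in these data: they were found in 3928 tested genes (34.4%), 17.3% higher and 17.1% lower in shPQBP1. With 1 member higher and 1 lower, the count of members was near that background.

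BIRC6 (ENSG00000115760; chr2:32357023-32619571, plus strand) is spread over 74 exons, and its canonical transcript of 15687 bases is the longest of the members. Its FPKM was 2.68, 5.87 and 5.01 in shNC and 6.09, 5.21 and 5.99 in shPQBP1. All shPQBP1 samples lay within or close to the range of shNC samples 2 and 3, and shNC sample 1 lay below the other 5 samples. The mean was 4.52 ± 1.65 in shNC and 5.76 ± 0.482 in shPQBP1 (SD, n = 3 each), with a log2 fold change of 0.41 (SE 0.28, 95% interval -0.28 to 1.10, limma adjusted p = 0.393).

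DIABLO (ENSG00000184047; chr12:122207663-122227456, minus strand, 6 exons) had an FPKM of 4.32, 4.57 and 4.98 in shNC and 4.29, 4.71 and 3.86 in shPQBP1. The values of the groups were interleaved. The mean was 4.62 ± 0.333 in shNC and 4.29 ± 0.425 in shPQBP1 (SD, n = 3 each). The log2 fold change was -0.11 (SE 0.11, 95% interval -0.37 to 0.15, limma adjusted p = 0.551), an interval that excludes a change of 2-fold in either direction. The second row named DIABLO, ENSG00000284934, is an overlapping gene on the same strand and was between 0.00 and 0.06. All 50-base words of the DIABLO transcript also occur in transcripts of that gene, so the level of DIABLO depends on how the authors' counting divided shared fragments. A further gene on the same strand, ENSG00000256861, shares 76.8% of the words and has no FPKM in these data. Exons of DIABLO also overlap antisense exons of B3GNT4 over 970 bp (13.9% of DIABLO exon bases). B3GNT4 had an FPKM of 0.00 to 0.13.

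HTRA2 (ENSG00000115317; chr2:74529596-74533350, plus strand, 8 exons) was the member with the smallest spread. Its FPKM was 6.28, 5.85 and 5.75 in shNC and 4.90, 5.09 and 5.51 in shPQBP1. The highest shPQBP1 sample was below the lowest shNC sample, with means of 5.96 ± 0.282 and 5.17 ± 0.312 (SD, n = 3 each). The log2 fold change was -0.20 (SE 0.09, 95% interval -0.41 to 0.01, limma adjusted p = 0.221). Exons of HTRA2 overlap antisense exons of LOXL3 over 936 bp (27.5% of HTRA2 exon bases) and of AUP1 over 165 bp (4.85%). LOXL3 had an FPKM of 0.17 to 0.35 and AUP1 of 28.21 to 34.17. No source states that the counting used strand, so reads of these partners cannot be told apart in the shared bases.

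**Figure D1:**
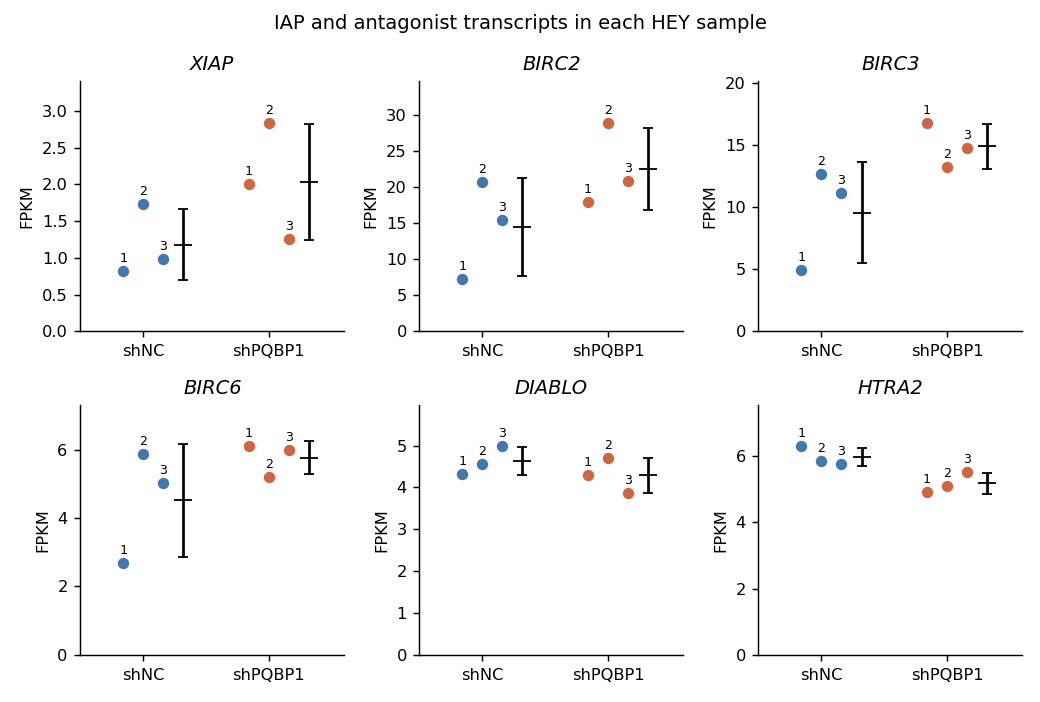
FPKM of each member (vertical axis, from 0) in the 3 shNC (blue) and 3 shPQBP1 (orange) samples, numbered by replicate, with the mean and SD beside each group in black. In XIAP, BIRC2, BIRC3 and BIRC6 shNC sample 1 is the lowest of the control samples, while DIABLO and HTRA2 vary little within a group.

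By a two-sided exact permutation test over the 6 samples, whose smallest p is 0.1, the difference in mean FPKM gave p = 0.1 for BIRC3 and HTRA2. The same exact test gave p = 0.2 for XIAP, BIRC2 and BIRC6 and p = 0.4 for DIABLO. Of the 9 possible pairs of a shPQBP1 and a shNC sample, the shPQBP1 sample was the higher in 9 for BIRC3, in 8 for XIAP, BIRC2 and BIRC6, in 2 for DIABLO and in 0 for HTRA2.

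The order of levels differed little between the groups. In shNC it ran from BIRC2 (14.5) over BIRC3 (9.55), HTRA2 (5.96), DIABLO (4.62) and BIRC6 (4.52) to XIAP (1.18), as mean FPKM. Neighbours whose samples overlapped were BIRC2 and BIRC3, BIRC3 and HTRA2, and DIABLO and BIRC6. In shPQBP1 BIRC6 (5.76) stood after BIRC3, ahead of HTRA2 (5.17) and DIABLO (4.29), and only BIRC6 and HTRA2 overlapped there. BIRC2 was above BIRC3 in all 6 samples, with a ratio of 1.48, 1.65 and 1.39 in shNC and 1.07, 2.19 and 1.42 in shPQBP1. This ratio of 1.5 ± 0.131 in shNC and 1.56 ± 0.575 in shPQBP1 (SD, n = 3 each) varied more among the knockdown samples.

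As a description of the balance between the classes, the FPKM of the 4 IAPs were summed and divided by the sum of the 2 antagonists. The IAP sum was 15.7, 41.0 and 32.5 in shNC and 42.8, 50.2 and 42.8 in shPQBP1, and the antagonist sum was 10.6, 10.4 and 10.7 in shNC and 9.19, 9.80 and 9.37 in shPQBP1. The ratio of IAPs to antagonists was 1.48, 3.93 and 3.03 in shNC and 4.66, 5.12 and 4.57 in shPQBP1. It was higher in every shPQBP1 sample than in any shNC sample, and most of the IAP sum is BIRC2 and BIRC3. Groups without overlap were found in 34.4% of tested genes. The IAP transcripts have 35.8% to 43.1% GC, below the 49.3% of DIABLO and the 57.9% of HTRA2. Across tested genes the log2 fold change fell with GC content (Spearman's rho -0.459, 11385 genes). The ratio was not corrected for GC content or length, and how far that trend shifted it was not tested. For XIAP alone, the FPKM of DIABLO was 5.27, 2.64 and 5.03 times that of XIAP in shNC and 2.15, 1.66 and 3.06 times in shPQBP1, and these values overlapped.

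A feature that the IAPs shared was the low value of shNC sample 1. It stood at 60.3% of the mean of shNC samples 2 and 3 for XIAP, at 40.3% for BIRC2, at 41.6% for BIRC3 and at 49.3% for BIRC6. For DIABLO and HTRA2 it stood at 90.5% and 108%. When shNC sample 1 was left out, the log2 fold changes were 0.53 for XIAP, 0.31 for BIRC2, 0.32 for BIRC3 and 0.08 for BIRC6. Those of BIRC2, BIRC3 and BIRC6 were the most reduced. Those of DIABLO and HTRA2 were then -0.16 and -0.17.

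The same sample departed from the other controls along the base composition and the length of the transcripts. Across 11385 tested genes with a GENCODE release 44 transcript, the difference of shNC sample 1 from the mean of shNC samples 2 and 3 rose with GC content (Spearman's rho 0.613 over these genes, given as a description because genes share the library). The median difference was -0.60 on the log2 scale in the lowest of 10 GC bins (23.1% to 38.3% GC) and 0.24 in the highest (61.0% to 78.7%). With transcript length the difference fell (Spearman's rho -0.350 over the same genes). The IAP transcripts are poor in GC, with 38.9% in XIAP, 37.4% in BIRC2, 35.8% in BIRC3 and 43.1% in BIRC6, whereas DIABLO has 49.3% and HTRA2 57.9%. Their length percentiles among tested genes are 94.4 for XIAP, 61.9 for BIRC2, 88.7 for BIRC3 and 99.6 for BIRC6. Those of DIABLO and HTRA2 are 21.2 and 27.1. GC content and length were not tested separately. The log2 fold change of shPQBP1 against shNC followed GC content as well (Spearman's rho -0.459 over the same genes, and -0.236 without shNC sample 1). Its median was 0.33 in the lowest GC bin, which holds BIRC2 and BIRC3, and 0.23 in the next, which holds XIAP, beside 0.02 over all tested genes. BIRC2 at -1.28, BIRC3 at -1.25 and BIRC6 at -0.99 lay further down in shNC sample 1 than the median of their bins, and XIAP at -0.62 lay nearer to it.

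**Figure D2:**
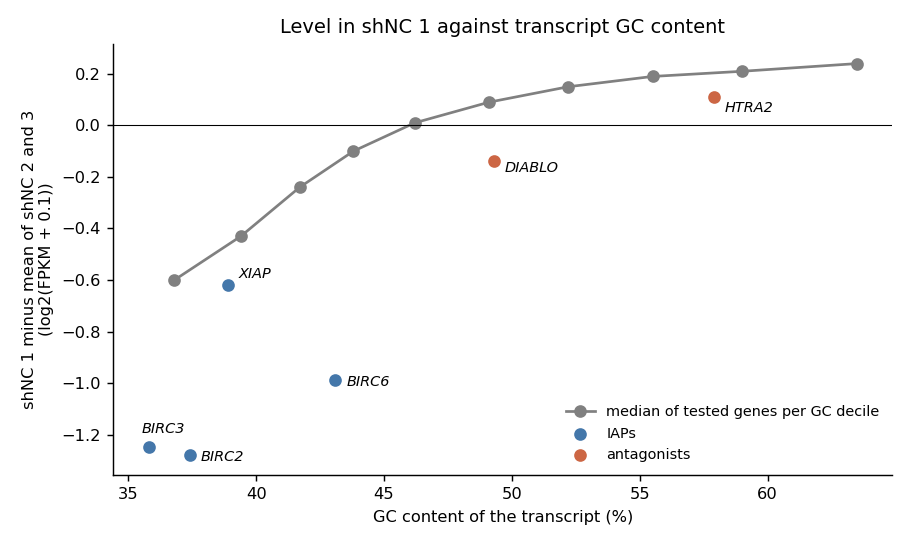
Level in shNC sample 1 minus the mean of shNC samples 2 and 3 (log2(FPKM + 0.1), vertical axis) against the GC content of the canonical transcript in percent (horizontal axis). Grey points are medians of the tested genes in 10 GC bins and rise from -0.60 to 0.24, blue points are the IAPs and orange points the antagonists. BIRC2, BIRC3 and BIRC6 lie well under the grey line.

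With the trend on GC content and length subtracted from each sample, every member moved towards 0. The corrected log2 fold changes were 0.46 for XIAP (95% interval -0.36 to 1.28), 0.48 for BIRC2 (-0.30 to 1.26), 0.43 for BIRC3 (0.01 to 0.85) and 0.20 for BIRC6 (-0.25 to 0.65). They were -0.05 for DIABLO (-0.37 to 0.28) and -0.02 for HTRA2 (-0.23 to 0.19). BIRC3 was then the only member whose groups did not overlap, against 35.9% of all genes in that fit, and its limma adjusted p was 0.172. The HTRA2 groups, apart before the correction, overlapped after it. Relative to the other controls on the log2 scale, shNC sample 1 went from -0.62 to -0.07 in XIAP, from -1.28 to -0.83 in BIRC2, from -1.25 to -0.59 in BIRC3 and from -0.99 to -0.64 in BIRC6. In the antagonists it went from -0.14 to -0.36 in DIABLO and from 0.11 to -0.18 in HTRA2, so the distance shrank in the IAPs and grew in the antagonists.

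**Figure D3:**
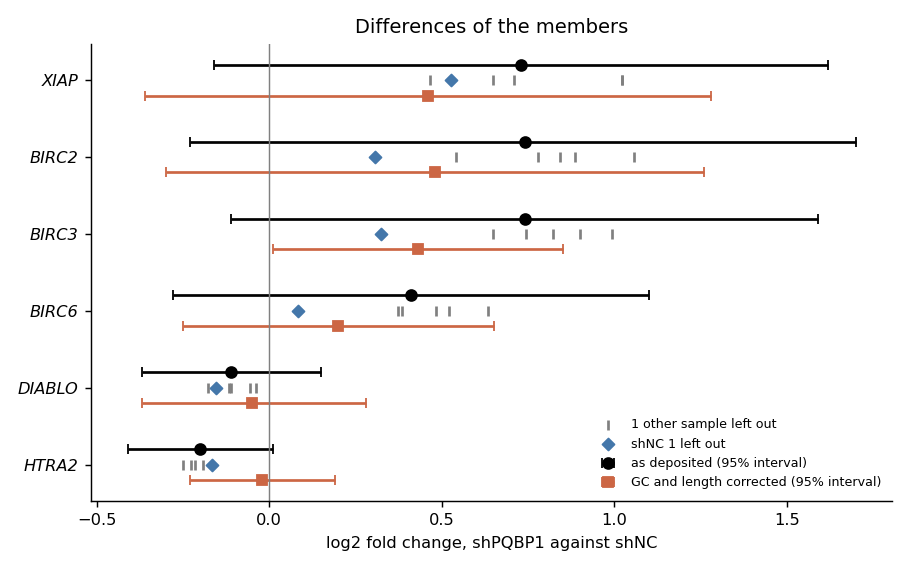
Log2 fold change of shPQBP1 against shNC (horizontal axis) for each member. Black points with 95% intervals use all samples as deposited, blue diamonds leave out shNC sample 1, grey ticks leave out 1 other sample in turn, and orange squares with 95% intervals are corrected for GC content and length. The IAPs sit to the right of 0 and the antagonists to the left in every fit, and the interval of BIRC3 after correction (0.01 to 0.85) is the only one of the 12 drawn that does not hold 0.

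The genes whose values over the 6 samples were most like each member were found by the root mean square (RMS) distance of log2 values, each gene centred on its shNC mean. They were UBLCP1 (RMS 0.036) and FSD1L (0.037) for BIRC3, SUCO (0.023) and CLK4 (0.031) for BIRC6, SCRN3 (0.146) and SNORD14D (0.163) for BIRC2, and SNORA41 (0.156) and PGRMC2 (0.174) for XIAP. For HTRA2 they were PXN (0.017) and TMEM50A (0.023), and for DIABLO SNRNP27 (0.035) and HYI (0.042). The GC content of the transcripts was 33.5% to 43.7% for the 8 genes nearest to the IAPs, with FSD1L lowest and SNORD14D highest. For the genes nearest to the antagonists it was 38.0% in SNRNP27, 40.9% in TMEM50A, 59.9% in PXN and 62.3% in HYI. Whether GC content sets these patterns was not tested. UBLCP1, the gene nearest to BIRC3, had an FPKM of 6.51, 17.13 and 14.12 in shNC and 21.55, 17.54 and 19.97 in shPQBP1. Among the members themselves, the nearest to BIRC2 was BIRC3 (RMS 0.308) and the nearest to BIRC3 was BIRC6 (0.250).

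BIRC3 is a textbook target of NF-kB, the factor whose activation the cIAPs govern, and its promoter is shown for that reason. The window is the RefSeq sequence (GRCh38.p14) of chr11:102317234-102317533, plus strand, from 250 bases before to 50 bases after the start of the transcript, and capitals mark matches to the NF-kB consensus of 10 bases on either strand.

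BIRC3: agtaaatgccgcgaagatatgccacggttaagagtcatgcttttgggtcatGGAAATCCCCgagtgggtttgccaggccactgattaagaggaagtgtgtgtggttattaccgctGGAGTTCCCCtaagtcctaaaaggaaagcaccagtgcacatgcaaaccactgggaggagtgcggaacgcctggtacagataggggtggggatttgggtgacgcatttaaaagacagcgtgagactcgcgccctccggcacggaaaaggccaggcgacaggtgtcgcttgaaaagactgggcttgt

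The window held 2 matches, at positions -199 and -135 from the start. One window of BIRC6 held 1 match at -215, and the windows of XIAP, BIRC2, DIABLO and HTRA2 held none. Of 34943 promoters of the same length, 2063 (5.9%) held at least 1 match. A match is a string of letters and was not measured as a bound site.

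Genes that work with the members were counted in lists by role. NF-kB subunits, inhibitors and target genes were the list with calls, 3 of 15 tested, all higher in shPQBP1. Of all 11413 tested genes, 332 (2.91%) were called, 197 of them higher. BCL2A1, an anti-apoptotic BCL2 family gene, had an FPKM of 17.05, 20.10 and 18.54 in shNC and 33.54, 30.71 and 31.59 in shPQBP1, a log2 fold change of 0.78 (SE 0.09, limma adjusted p = 0.0154). The cytokine gene IL6 had 6.18, 5.71 and 6.41 in shNC and 9.69, 10.31 and 9.77 in shPQBP1, a log2 fold change of 0.69 (SE 0.08, limma adjusted p = 0.0181). The neutrophil chemokine gene CXCL8 had 116.69, 117.64 and 123.96 in shNC and 165.33, 171.54 and 164.08 in shPQBP1, a log2 fold change of 0.48 (SE 0.06, limma adjusted p = 0.0189). In all 3 genes shNC sample 1 was close to the other controls, unlike in BIRC3. After the GC and length correction BCL2A1 and IL6 were called again. CXCL8 was then at 0.21 (limma adjusted p = 0.456) and ICAM1 was called (0.29, limma adjusted p = 0.0429). The list thus again held 3 calls, in a fit that called 938 of its 11385 genes. Without shNC sample 3 or any of the shPQBP1 samples none of the 3 genes was called, and without shNC sample 2 only BCL2A1 was. Their log2 fold changes in the fits without 1 sample stayed at 0.72 to 0.84 for BCL2A1, 0.65 to 0.73 for IL6 and 0.46 to 0.51 for CXCL8.

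The 3 called genes did not stand for the whole list. Its median log2 fold change was 0.06, near the 0.02 of all tested genes, and 6 of its 15 tested genes were lower at an unadjusted p under 0.05 and 4 higher, against 1336 lower and 1353 higher of the 11413 tested genes (23.6% in both directions together). RELA, the main activating subunit and named here after its values were seen, had an FPKM of 16.08, 12.69 and 14.28 in shNC and 6.07, 6.69 and 10.28 in shPQBP1, with a log2 fold change of -0.92 (SE 0.21, limma adjusted p = 0.0749). Its groups did not overlap. After the GC and length correction all 6 lower genes of the list lay nearer to 0. RELA was then at -0.74 (limma adjusted p = 0.0756) and the others at -0.20 to -0.05 (limma adjusted p of 0.132 to 0.716). The 4 higher genes were at 0.21 to 0.63 in that fit. CCL2 was at or near 0 and was not tested.

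The remaining lists had no call with all samples, and the caspase list had 1 without shNC sample 1. In the TNF receptor signalling complex, where BIRC2 and BIRC3 act, 17 of 17 genes were tested, and the smallest p-values were those of TAB1 (log2 fold change -0.46, limma adjusted p = 0.0653), RBCK1 (-0.30, limma adjusted p = 0.133) and RNF31 (-0.82, limma adjusted p = 0.142). TAB1 belongs to the TAK1 kinase complex, and RBCK1 and RNF31 are parts of the linear ubiquitin ligase. SHARPIN, also part of that ligase, lay the other way at 0.11 (limma adjusted p = 0.604), and its groups overlapped. After the GC and length correction TAB1 was at -0.28, RBCK1 at -0.13, RNF31 at -0.63 and SHARPIN at 0.34. Their limma adjusted p was then 0.0881, 0.461, 0.237 and 0.0866. Among 9 ubiquitin enzymes, UBE2V1, the partner of UBE2N in building ubiquitin chains, had a log2 fold change of -0.50 (limma adjusted p = 0.104). UBE2D1 was at 0.41 and USP19 at -0.23 (limma adjusted p = 0.251 and 0.260).

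Among caspases and the apoptosome, 5 of 6 genes were tested, and CASP9 at 0.82 ± 0.070 in shNC and 0.710 ± 0.118 in shPQBP1 (SD, n = 3 each) was under the filter. APAF1, the scaffold of the apoptosome, had a log2 fold change of 0.25 (SE 0.13, 95% interval -0.06 to 0.56, limma adjusted p = 0.286).

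Handlers of the antagonists in mitochondria included PARL, a rhomboid protease of the inner membrane known to cut DIABLO. PARL had an FPKM of 23.69, 27.70 and 23.87 in shNC and 13.44, 17.08 and 18.40 in shPQBP1, with groups that did not overlap. Its log2 fold change was -0.63 (SE 0.14, 95% interval -0.96 to -0.29, limma adjusted p = 0.069). HAX1, a mitochondrial partner of HTRA2, was at 0.14 (limma adjusted p = 0.577). Of the other intermembrane space proteins, AIFM1 was at -0.18 (limma adjusted p = 0.240) and CYCS, cytochrome c, at 0.19 (limma adjusted p = 0.322).

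Of the other BIR genes, only BIRC5 (survivin, which acts in cell division) was tested. It had an FPKM of 11.44, 9.60 and 9.74 in shNC and 8.05, 9.18 and 8.52 in shPQBP1, with a log2 fold change of -0.25 (SE 0.10, limma adjusted p = 0.209). The groups did not overlap, and BIRC5 lay on the other side of 0 from the 4 IAPs among the members. NAIP had an FPKM of 0.373 ± 0.134 in shNC and 0.377 ± 0.0814 in shPQBP1 (SD, n = 3 each), and BIRC7 and BIRC8 were at or near 0.

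**Figure D4:**
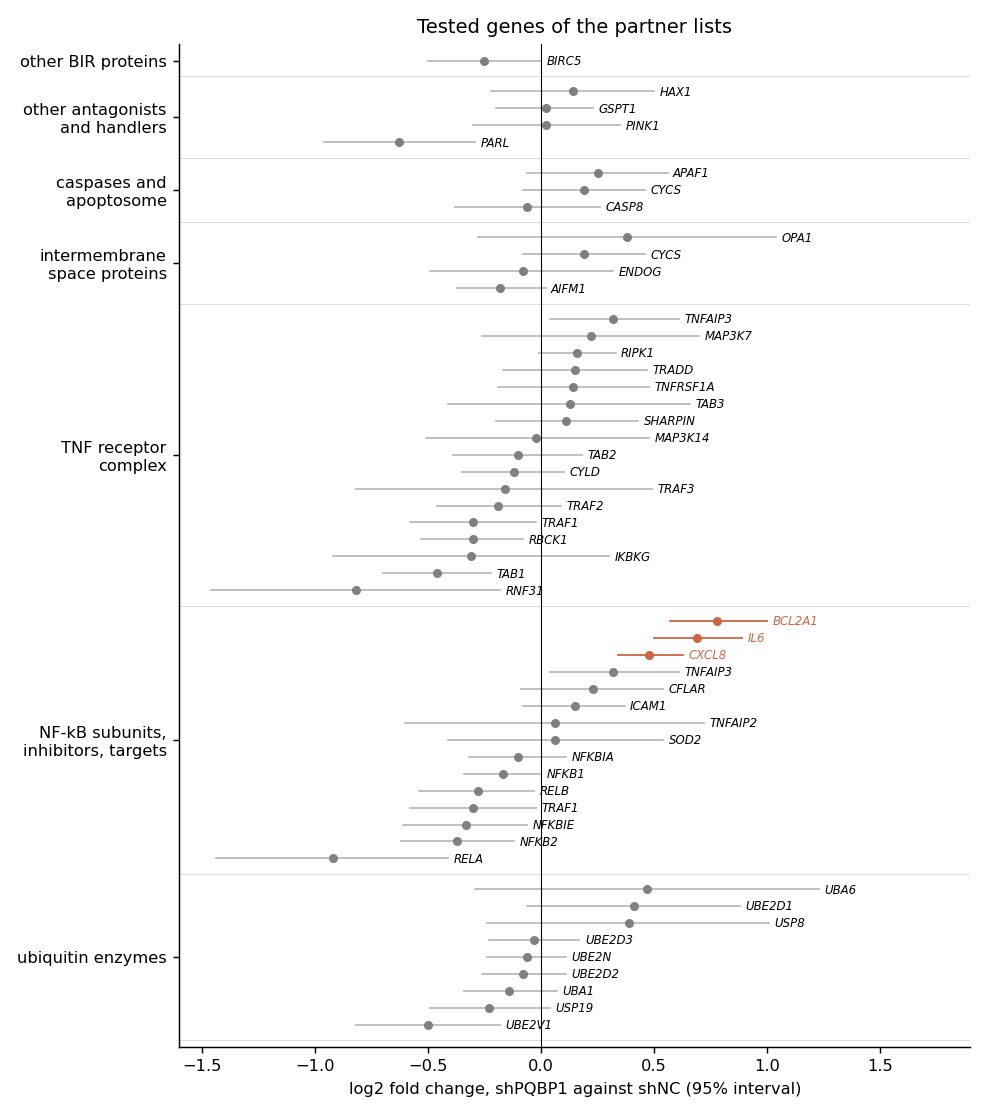
Log2 fold change of shPQBP1 against shNC with its 95% interval (horizontal axis) for tested genes of the 7 lists, grouped by role. Orange marks the 3 genes called at an adjusted p under 0.05 (BCL2A1, IL6 and CXCL8), and grey marks genes that were not called, among them RELA at -0.92 and PARL at -0.63.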

How the data were processed

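Paired-end short reads of 3 shNC and 3 shPQBP1 HEY samples were processed by the authors. The submitters' processing notes name hg38, HISAT2 (2.2.0), SAMtools (1.9), StringTie (1.3.0) and edgeR. The annotation release is not given in the sources used here. The authors deposited one table with FPKM per gene and sample, rounded to 2 decimals, and replicates were not pooled. Its columns of the authors' own comparison (fold change, p, q, regulation) were not used. FPKM values are not counts, so no count model was fitted, and the depth is unknown: precision rests on the spread between samples.

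Genes averaging an FPKM of 1 or more were tested on log2(FPKM + 0.1), which understates changes of low genes, with limma (3.58.1; R 4.3.3; mean-variance trend; Benjamini-Hochberg adjustment over 11413 genes; calls at 0.05). Exact permutation tests used scipy (1.17.1). The steps were tested on simulated data. The members and lists were chosen with earlier results of these data known. Genes named are PQBP1, the members, in each list the called genes or else up to 3 with the smallest p, and the 2 genes most like each member. Others are named outside this rule, among them RELA, SHARPIN, CCL2, CASP9, NAIP, WT1 and PECAM1. Of these, RELA and SHARPIN were named after their values were seen. Some genes of the lists are not reported here and are left out of the plot.

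Alternatives were median-of-ratios scaling, quantile normalization, all genes with any value above 0, genes averaging 10 or more, pseudocounts of 1 and 0.01, no trend, a block for the replicate number, fits without 1 sample at a time, and a correction for GC content and length (natural splines with 5 degrees of freedom on GENCODE release 44 transcripts, 11385 genes). Positions come from GENCODE release 44 and may differ from the authors' annotation.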

Additional observations from a re-analysis of the deposited data

How the results depend on the processing

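No member was called in any of the 86 member fits under 15 alternatives, and all 86 kept the direction found with all samples. In the fits without 1 sample, the log2 fold change ranged from 0.47 to 1.02 for XIAP, 0.31 to 1.06 for BIRC2, 0.32 to 0.99 for BIRC3, 0.08 to 0.63 for BIRC6, -0.18 to -0.04 for DIABLO and -0.25 to -0.17 for HTRA2. Over all alternatives the limma adjusted p of the members lay between 0.164 and 0.910. The cause of the shifts below was not tested.

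The number of members at an unadjusted p under 0.05, 0 in the comparison as reported, was 1 with median-of-ratios scaling (23.8% of all genes), 1 with quantile normalization (24.4%), 1 with the GC and length correction (27.6% of all genes tested in that fit) and 0 to 3 with a sample left out (3 without shNC sample 2, against 25.8% of all genes). Members whose groups did not overlap, 2 as reported, were 1 at a mean FPKM of at least 10, where only BIRC2 and BIRC3 were tested (37.6% of all genes), 1 with the GC and length correction (35.9%), and 2 to 5 with a sample left out (5 without shNC sample 2, against 47.2% of all genes, and 4 without shPQBP1 sample 2, against 47.5%). Genes called, 332 as reported, were 190 with every gene above 0, 211 at a mean FPKM of at least 10, 938 with the GC and length correction (565 higher and 373 lower) and 30 to 464 with a sample left out, the lowest without shPQBP1 sample 3. Genes at an unadjusted p under 0.05 (2689) were 4156, 956 and 1780 to 2940 with every gene above 0, at a mean of at least 10 and with a sample left out. Those that also changed over 2-fold (173) were 662, 40, 83 with a pseudocount of 1, and 144 to 312. The 3 partner genes called became 0 to 4 with a sample left out. The number was 0 without shNC sample 3 or any shPQBP1 sample, 1 without shNC sample 2, and 4 without shNC sample 1. In the last of these fits 1 of the calls was in the caspase list.

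With the replicate number as a block, the log2 fold changes of the members were unchanged, 2 members were at an unadjusted p under 0.05 (1840 genes or 16.1% of all), and 0 members, 0 partner genes and 0 genes of the table were called. Deviations of samples with the same number correlated at -0.186, -0.138 and -0.011, and those with different numbers at -0.143 to 0.225. Each deviation was taken from a group mean of 3 samples. These values therefore cannot tell whether samples with the same number shared more than that number. Depth is unknown, and 3 samples a group with this spread leave intervals up to 1.93 wide (log2, BIRC2).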
